A study of Mus musculus with 6 samples.

Results

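The nuclear genes of the mitochondrial respiratory chain and ATP synthase were examined in c-Kit+ spleen cells of 6 mice. They were taken from a table of 24054 gene symbols as every symbol that starts with Nduf, Uqcr, Atp5 or Cox4 to Cox8, together with Sdha, Sdhb, Sdhc, Sdhd, Cyc1 and Cycs. This gave 94 genes, of which 89 were abundant enough to be tested. The symbols also bring in 7 complex I assembly factors (Ndufaf genes), Cox7a2l, a factor that joins complexes III and IV, and Atp5sl, which RefSeq lists as Dmac2, a complex I assembly factor. Atp5s carries an ATP synthase name but is not an established subunit.

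The study compared 3 AML mice with 3 MPN mice by RNA-seq, 1 library per mouse. The AML mice (acute myeloid leukaemia) were moribund and had the genotype Flt3ITD/ITD, Dnmt3afl/- with MxCre, a recombinase driven by the interferon-inducible Mx promoter. The MPN mice (myeloproliferative neoplasm) were Flt3ITD/ITD, Dnmt3afl/fl, with no Cre named in their titles. The internal tandem duplication (ITD) of Flt3, a growth factor receptor of blood progenitors, was thus homozygous in both groups. Genotype, Cre and disease changed together and cannot be told apart, and whether Cre had removed the floxed allele is not said. Ages and strains are not given in the sources used here. Nothing beyond the mouse numbers in the titles describes how the animals were related.

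Dnmt3a, the de novo DNA methyltransferase targeted in the AML mice, had 11.5, 13.5 and 12.9 TPM in AML mice, against 33.9, 29.3 and 33.4 TPM in MPN mice (TPM is a relative transcript level, scaled to transcript length and to the library total). Its log2 fold change, AML over MPN on the log2(TPM + 1) scale used throughout, was -1.28 ± 0.13 (SE), with a limma adjusted p of 0.00088. Kit, the marker used for the bead selection, was present in every library, with 119 ± 17.3 TPM in AML, against 147 ± 4.17 TPM in MPN mice (SD, n = 3 each). The depth of a library relative to the geometric mean of all 6, estimated from the steps of low RPKM values, was 0.749 to 1.31 in AML and 0.949 to 1.06 in MPN. Xist was above background in AML replicates 1 and 2 only, so that female animals occurred in the AML group alone. Per the file headers, MPN replicate 1 came from another sequencing run than the other libraries.

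The respiratory chain moves electrons from NADH and succinate to oxygen through complexes I to IV, with coenzyme Q and cytochrome c as the mobile carriers. Complexes I, III and IV pump protons across the inner mitochondrial membrane, and ATP synthase uses the gradient to make ATP. Blood stem cells are known for a low use of this pathway, and proliferating myeloid leukaemia cells often depend on it. A set of core subunits is encoded by mitochondrial DNA, and those genes were not analysed here.

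Most respiratory chain genes had a small positive log2 fold change of AML over MPN, and few were called. The median log2 fold change of the 89 tested genes was 0.22, which compares with 0.13 over all 12223 tested genes. On this scale 77 (86.5%) were positive and 12 negative, and the values spanned -0.30 for Ndufaf3 to 3.38 for Cox4i2. Of all tested genes, 61.4% were positive, a background that also applies to the counts of positive genes below. After adjustment over all tested genes 15 were higher in AML and 0 lower (limma, Benjamini-Hochberg, threshold 0.05). Of all tested genes, 30.1% were called in either direction. The 15 genes are 16.9% of the tested respiratory genes, a share below the background of 20.1% of all tested genes called higher. The background for lower calls was 10.0%, and both backgrounds also apply to the counts of calls in each complex below. At an unadjusted p under 0.05, 35 of the 89 were higher and 0 lower, beside 5326 of all 12223 tested genes in either direction. Every AML mouse lay above every MPN mouse for 55 of the 89 genes and below for 3, and the groups overlapped for 31. The share of all tested genes lying wholly above was 34.8%, and wholly below 16.1%.

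Only Cox4i2 and Cox7a1, isoforms of complex IV, were called with a change of at least 2-fold, against a background of 7.35% of all tested genes called at least 2-fold higher. The other 13 called genes had log2 fold changes of 0.31 to 0.57. All 15 had a positive log2 fold change under each of the 16 alternatives that tested them, but only Cox4i2 passed in all of them. Without MPN replicate 1, 2 or 3 the fits called 1, 3 and 2 genes, all among the 15. Without AML replicate 1, 2 or 3 they called 7, 8 and 10, of which 7, 7 and 9 were among the 15. When libraries were scaled to a common median, which moved the median of all tested genes to -0.01, the respiratory median became 0.08. Under that scaling 55 of the 89 genes were positive and 34 negative, with Cox4i2, Atp5a1 and Ndufv1 called higher and Atp5sl lower. Cox4i2 was also the only call without MPN replicate 1, the library of the other sequencing run, and with a term for sex.

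**Figure D1:**
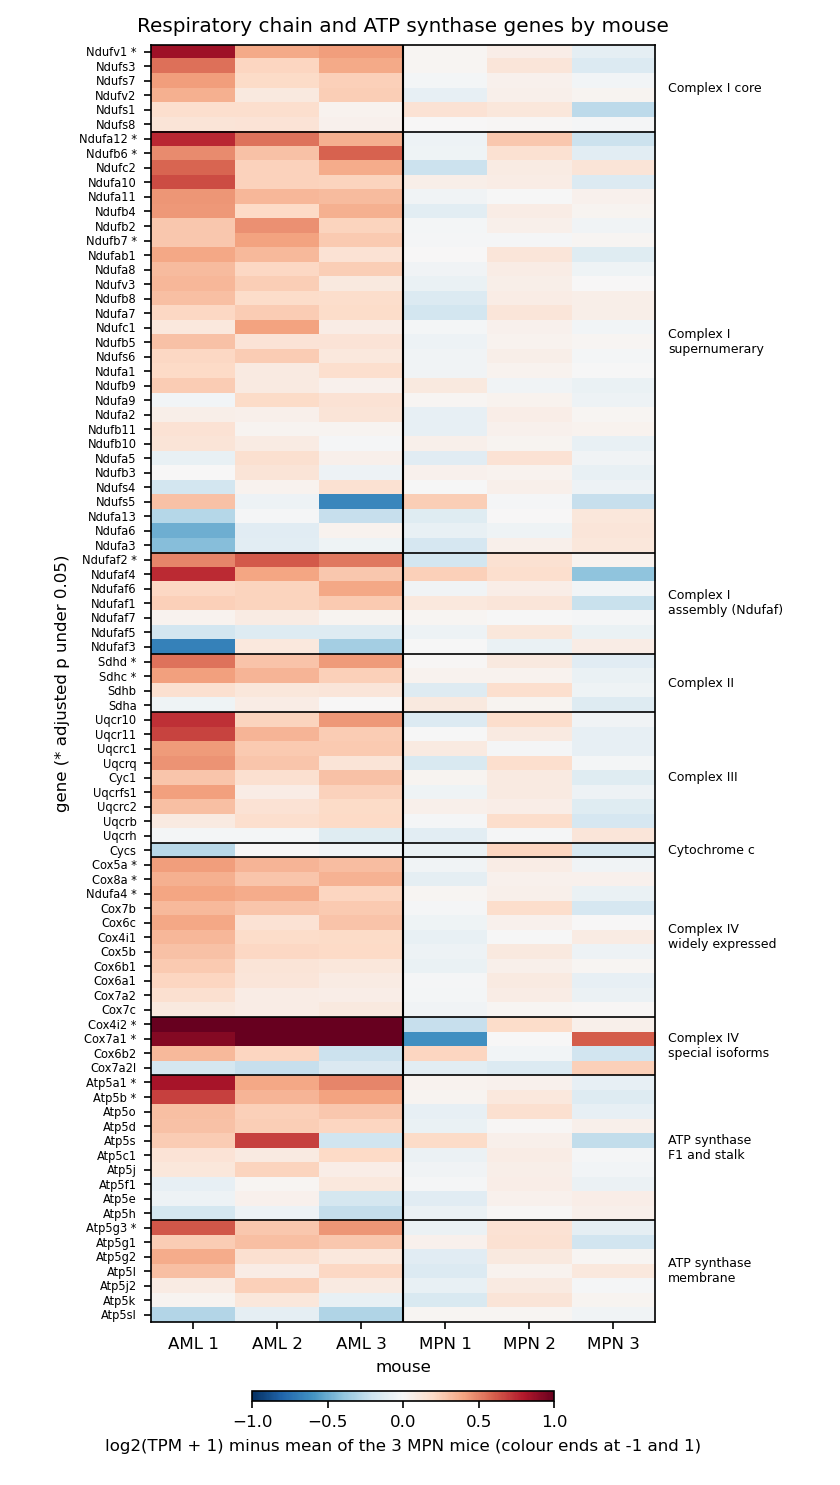
Levels of 88 of the 89 tested genes in each mouse, as log2(TPM + 1) minus the mean of the 3 MPN mice, with genes in rows grouped by role, AML mice left and MPN mice right. Red cells are above the MPN mean and blue cells below. AML replicate 1 is the highest of the 6 mice for 49 of the 89 genes, a count not made over all tested genes.

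The mice did not contribute alike. AML replicate 1 had the highest level of the 6 mice for 49 of the 89 genes, AML replicate 2 for 18 and AML replicate 3 for 9. MPN replicates 3 and 1 had the lowest level for 37 and 36 genes, while MPN replicate 2 was lowest for 1. On the log2 scale, the median deviation from the MPN mean came to 0.28 in AML replicate 1, 0.19 in AML replicate 2 and 0.18 in AML replicate 3, and it stayed between -0.04 and 0.06 in MPN. Over all tested genes the same median was 0.20, 0.13 and 0.10 in AML replicates 1, 2 and 3. In MPN replicates 1, 2 and 3 it was 0.09, 0.03 and -0.11, so part of the order of the mice was shared by all genes. Each AML mouse exceeded each MPN mouse in a majority of the genes, from 65 of 89 for AML replicate 3 against MPN replicate 2 to 81 of 89 for AML replicate 2 against MPN replicate 1. The counts by mouse and by pair of mice were not made over all tested genes, of which 61.4% had a positive log2 fold change.

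Promoter sequence was available for 77 of the 94 genes, as 83 windows of 250 bases before an annotated start (RefSeq, GRCm38.p6). Motifs were searched on both strands, and no match overlapped a match to another motif. The motif of NRF1, an activator of respiratory genes (GCGC, then A and any base, then GCGC), lay in 15 windows or 18.1%, against 3.74% of 32851 windows of all genes. CCGGAAG, a motif of ETS factors such as GABP, lay in 13 windows or 15.7%, against 6.91% of all windows. The E box CACGTG lay in 9 windows (10.8%, against 6.02% of all), and AAGATGGC, a YY1 motif, in 2 (2.41%, against 1.56% of all). The 9 E box windows belong to 7 genes, because Ndufa7 and Atp5sl each have 2 overlapping windows that hold the same site. Of the 14 tested genes with the NRF1 motif, 1 was called higher, Sdhd, and their median log2 fold change was 0.17. The 61 tested genes with a window and no NRF1 motif had 11 calls and a median of 0.22. Of the 13 genes with the ETS motif, 3 were called, namely Sdhd, Ndufb6 and Ndufb7, with a median of 0.20.

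The windows below belong to genes called higher. They are shown 5′ to 3′ on the gene's strand, with motif matches in capitals, because they span the range from 2 matches to none. Sdhd (chr9:50603850-50604099, minus strand) holds the NRF1 motif from -79 to -70 and an ETS motif from -46 to -40, counted from the start site. Ndufb6 (chr4:40279422-40279671, minus strand) holds an ETS motif from -232 to -226. The match in Atp5g3 (chr2:73911327-73911576, minus strand) is an E box from -238 to -233. Cox7a1 (chr7:30183921-30184170, plus strand) has no match to these motifs.
Sdhd: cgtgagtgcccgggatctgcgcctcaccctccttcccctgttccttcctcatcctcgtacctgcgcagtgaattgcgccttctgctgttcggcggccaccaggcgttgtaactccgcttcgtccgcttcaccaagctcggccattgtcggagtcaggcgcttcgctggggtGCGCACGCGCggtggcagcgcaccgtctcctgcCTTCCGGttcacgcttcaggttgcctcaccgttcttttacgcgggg
Ndufb6: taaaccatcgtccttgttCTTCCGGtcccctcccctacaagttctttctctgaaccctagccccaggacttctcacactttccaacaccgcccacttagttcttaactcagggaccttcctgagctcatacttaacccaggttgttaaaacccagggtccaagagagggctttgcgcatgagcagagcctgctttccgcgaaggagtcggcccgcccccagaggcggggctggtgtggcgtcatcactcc
Atp5g3: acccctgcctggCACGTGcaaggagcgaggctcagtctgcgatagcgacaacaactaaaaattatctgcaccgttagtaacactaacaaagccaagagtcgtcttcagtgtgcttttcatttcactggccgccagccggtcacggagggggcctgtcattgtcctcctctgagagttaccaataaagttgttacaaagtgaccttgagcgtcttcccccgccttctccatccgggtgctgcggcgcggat
Cox7a1: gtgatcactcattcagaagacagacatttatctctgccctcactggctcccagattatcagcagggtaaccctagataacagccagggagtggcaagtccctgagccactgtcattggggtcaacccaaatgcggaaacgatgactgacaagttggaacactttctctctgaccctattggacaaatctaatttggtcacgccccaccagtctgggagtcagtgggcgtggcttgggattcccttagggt

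Complex I, or NADH dehydrogenase, was represented by its 7 nuclear core subunits, which hold the flavin and the iron-sulphur clusters, and by 29 supernumerary subunits. All 7 core subunits had a positive log2 fold change, with a median of 0.28, and 1 (14.3%) was called higher. Ndufv1, which binds NADH and the flavin, stood at 163, 117 and 121 TPM in AML and at 91.2, 94.7 and 84.8 TPM in MPN. AML replicate 1 was well above the other AML mice, and every AML mouse lay above every MPN mouse. The log2 fold change was 0.55 ± 0.15 (SE), with a limma adjusted p of 0.028. Ndufs3 had 149, 118 and 132 TPM in AML and 103, 111 and 92.3 TPM in MPN, at 0.38 ± 0.13 and an adjusted p of 0.059. Its groups did not overlap, yet it did not pass the threshold. The Ndufv1 call was lost without MPN replicate 1, 2 or 3, with adjusted p up to 0.088.

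The supernumerary subunits of complex I surround the core and hold the complex together. Among the 29, 3 (10.3%, below the background of 20.1%) were called higher, 0 lower, 25 were positive and the median was 0.19. Ndufa12 had 255, 220 and 194 TPM in AML and 146, 182 and 130 TPM in MPN, a log2 fold change of 0.55 ± 0.16 (adjusted p = 0.038, limma). Ndufb6 had 143, 126 and 155 TPM in AML and 99.4, 114 and 95.0 TPM in MPN, or 0.45 ± 0.12 (adjusted p = 0.030, limma). Ndufb7 had 288, 314 and 285 TPM in AML and 236, 236 and 242 TPM in MPN, or 0.31 ± 0.09 (adjusted p = 0.042, limma). In each of them the lowest AML mouse was above the highest MPN mouse, by the smallest margin for Ndufa12 and Ndufb6. Ndufa3, with the highest mean level of the group, ran the other way at 336, 421 and 438 TPM in AML and 403, 469 and 489 TPM in MPN, with overlapping groups and a log2 fold change of -0.19 (adjusted p = 0.32, limma). Ndufa6, Ndufa13 and Ndufs5 were the other negative subunits, from -0.19 to -0.14, and none passed. Leaving out single mice ended each of the 3 calls in at least 4 of 6 cases, with adjusted p up to 0.14. The X-linked genes Ndufa1, Ndufb11 and, in complex IV, Cox7b had log2 fold changes of 0.15, 0.07 and 0.29 and did not pass.

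Among the 7 Ndufaf assembly factors, which build complex I and do not stay in it, 1 (14.3%) was called. Ndufaf2 had 30.4, 33.2 and 31.3 TPM in AML and 18.7, 23.9 and 22.0 TPM in MPN. The groups were well apart, at a log2 fold change of 0.54 ± 0.13 (adjusted p = 0.022, limma). Ndufaf4 had 18.7, 14.4 and 13.2 TPM in AML and 12.8, 12.2 and 7.88 TPM in MPN, with AML replicate 1 high and MPN replicate 3 low, and did not pass (0.47 ± 0.22, adjusted p = 0.15). Ndufaf6 had 14.9 to 17.0 TPM in AML and 12.4 to 13.4 TPM in MPN and did not pass (0.27 ± 0.14, adjusted p = 0.16). Ndufaf3 and Ndufaf5 were negative, at -0.30 and -0.15, and did not pass. The Ndufaf2 call was lost without AML replicate 2 and when any 1 MPN mouse was left out, with adjusted p up to 0.084.

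Complex II, succinate dehydrogenase, links the citric acid cycle to the chain. Both membrane anchors, 50% of its 4 subunits, were called higher. Sdhd had 256, 213 and 235 TPM in AML and 177, 188 and 162 TPM in MPN, a log2 fold change of 0.42 ± 0.11 (adjusted p = 0.030, limma). Sdhc had 157.8, 149.98 and 139.7 TPM in AML and 121, 121 and 113 TPM in MPN, or 0.33 ± 0.10 (adjusted p = 0.042, limma). For both anchors the groups did not overlap. Sdha, the flavoprotein, had 174, 189 and 179 TPM in AML and 192, 183 and 164 TPM in MPN, and Sdhb, the iron-sulphur subunit, had 150, 145 and 146 TPM in AML and 122, 150 and 130 TPM in MPN. The groups overlapped for both, and their log2 fold changes of 0.01 and 0.13 did not pass. A test of the difference between anchors and catalytic subunits was not made. The Sdhd call was kept only without AML replicate 2 and the Sdhc call only without AML replicate 3 among the 6 fits that left out a mouse, and the highest adjusted p was 0.12.

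Complex III, which passes electrons from coenzyme Q to cytochrome c, had 9 tested subunits and 0 calls, although 8 were positive, with a median of 0.24. At an unadjusted limma p under 0.05 there were 4, beside 5326 of all 12223 tested genes. The RPKM table called 2 higher, beside 20.5% of all genes tested there. Uqcr11 had 443, 351 and 330 TPM in AML and 276, 295 and 261 TPM in MPN, and at 0.42 ± 0.13 it fell just short, with a limma adjusted p of 0.0502. Uqcrc1, a core protein, had 260, 231 and 232 TPM in AML and 206, 192 and 182 TPM in MPN, or 0.32 ± 0.10 (adjusted p = 0.054, limma). Uqcr10 had 471, 331 and 383 TPM in AML and 257, 320 and 276 TPM in MPN, or 0.46 ± 0.15 (adjusted p = 0.058, limma). For these 3 genes no MPN mouse reached the lowest AML mouse. Uqcrh, the hinge protein and the most abundant of the group, had 502, 501 and 469 TPM in AML and 472, 503.8 and 553 TPM in MPN, with overlapping groups and a log2 fold change of -0.05. Cycs, cytochrome c itself, had 69.5, 84.5 and 82.7 TPM in AML and 80.7, 98.3 and 76.0 TPM in MPN. Its groups overlapped, and it did not pass (-0.10 ± 0.14, adjusted p = 0.59, limma).

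**Figure D2:**
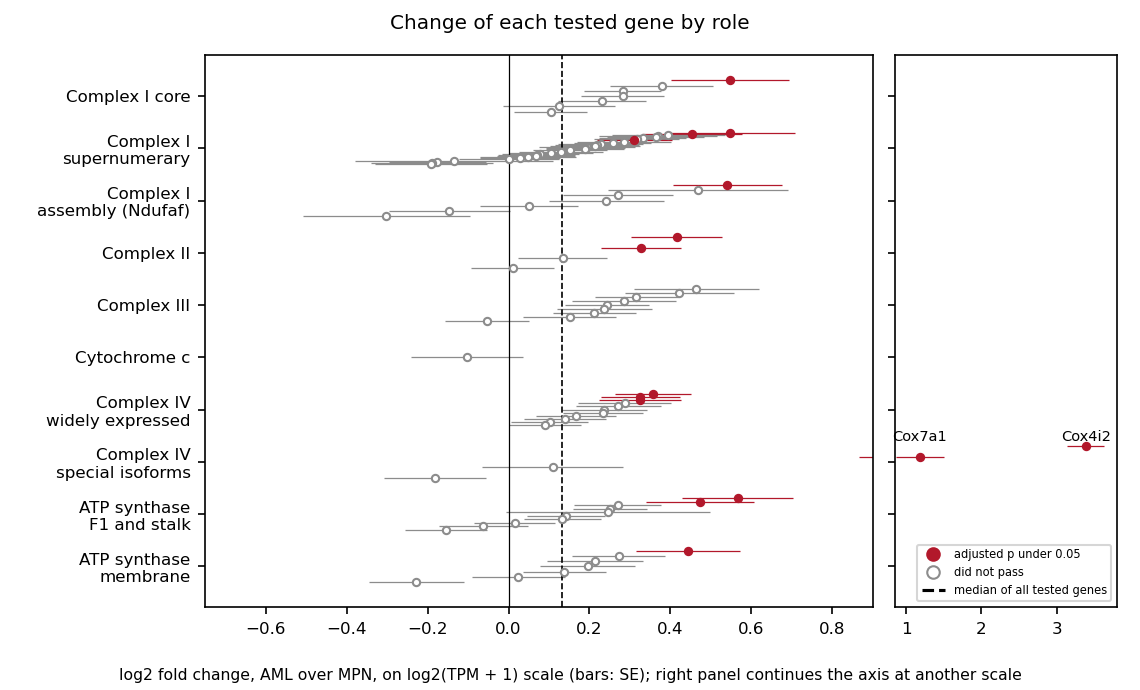
Log2 fold change of AML over MPN for each tested gene, grouped by role, with bars for the SE; the right panel continues the axis for Cox7a1 and Cox4i2. Filled points passed an adjusted p of 0.05, and most open points lie to the right of 0 and around the dashed median of all tested genes at 0.13.

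Complex IV, cytochrome c oxidase, reduces oxygen, and several of its subunits exist as a widely expressed isoform and a tissue-restricted one. All 11 widely expressed subunits were positive, with a median of 0.24, and 3 (27.3%) were called. Cox5a had 425, 401 and 394 TPM in AML and 309, 334 and 309 TPM in MPN, a log2 fold change of 0.36 ± 0.09 (adjusted p = 0.028, limma). Cox8a had 737, 697 and 735 TPM in AML and 543, 594 and 594 TPM in MPN, or 0.33 ± 0.10 (adjusted p = 0.043, limma). Ndufa4, named after complex I but a subunit of complex IV, had 598, 588 and 528 TPM in AML and 461, 470.1 and 434 TPM in MPN, or 0.33 ± 0.10 (adjusted p = 0.048, limma). In all 3 the groups were apart, with little spread inside either. The Cox8a call was lost in each of the 6 fits that left out a mouse, and those of Cox5a and Ndufa4 in 4 and 5 of them, with adjusted p up to 0.16. Cox7c, at 471 to 480 TPM in AML and 438 to 454 TPM in MPN, had the smallest log2 fold change of the 11, at 0.09.

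Cox4i2 differed far more than any other respiratory gene. It is the alternative form of subunit 4, known from lung and from cells under low oxygen. Its level was 53.9, 33.2 and 29.7 TPM in AML and 2.16, 3.20 and 2.83 TPM in MPN. The lowest AML mouse was far above the highest MPN mouse, and AML replicate 1 exceeded the other AML mice. The means of 38.9 ± 13.1 and 2.73 ± 0.53 TPM (SD, n = 3 each) for AML and MPN gave a 14.3-fold ratio. The log2 fold change was 3.38 ± 0.25 (SE), with a limma adjusted p of 0.00025, and between 2.47 and 3.75 over the 16 alternatives. The deposited RPKM values were 16.5, 9.85 and 9.10 in AML and 0.664, 0.869 and 0.915 in MPN, where low values are raised by the read that had been added to each gene. Its gene (ENSMUSG00000009876) spans chr2:152754173-152765037, plus strand (GRCm38, GENCODE M21).

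Cox4i1, the common form of subunit 4, had 856, 771 and 774 TPM in AML and 643, 676 and 718 TPM in MPN, and at 0.24 ± 0.10 did not pass (adjusted p = 0.12, limma). Cox4i2 therefore supplied 5.93%, 4.12% and 3.70% of subunit 4 transcripts in AML, against 0.33%, 0.47% and 0.39% in MPN. The groups did not overlap, and Cox4i1 remained the main form in every mouse. The genes on either side of Cox4i2, named after their values were seen, were also higher in AML. Id1, a helix-loop-helix inhibitor of differentiation factors, averaged 59.5 ± 17.9 TPM in AML, against 8.87 ± 1.91 TPM in MPN mice (log2 fold change 2.60, adjusted p = 0.00052, limma). Bcl2l1, an inhibitor of apoptosis, averaged 31.0 ± 8.85 TPM in AML, against 9.99 ± 0.80 TPM in MPN mice (1.51, adjusted p = 0.0024, limma). Id1 and Bcl2l1 passed in all 16 alternatives. The next genes outward, Mcts2 and Tpx2, did not pass, at -0.00 and 0.29.

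Cox7a1, the heart and skeletal muscle form of subunit 7a, was called from low levels. It had 3.29, 5.10 and 4.27 TPM in AML and 0.49, 1.28 and 2.47 TPM in MPN. The groups did not overlap, but MPN replicate 3 came close to AML replicate 1. The log2 fold change was 1.18 ± 0.32 (adjusted p = 0.029, limma), and it was 0.61 in the RPKM table. The call was lost without AML replicate 2 or 3 or MPN replicate 1 or 2, with adjusted p up to 0.082. The gene (ENSMUSG00000074218) spans chr7:30184144-30186078, plus strand. Within the subunit 7a family Cox7a2 had 199, 188 and 187 TPM in AML and 176, 188 and 171 TPM in MPN, and did not pass (0.10, adjusted p = 0.44). Cox7a2l had 391, 375 and 398 TPM in AML and 409, 401 and 520 TPM in MPN, with every AML mouse below every MPN mouse, and did not pass (-0.18, adjusted p = 0.30).

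The other isoform genes of complex IV did not pass or were too low to test. Cox6b2, known from testis, had 76.6, 70.7 and 52.5 TPM in AML and 70.9, 59.7 and 53.4 TPM in MPN, which was 10.1% ± 1.43 of the subunit 6b transcripts in AML and 10.4% ± 1.69 in MPN (SD, n = 3 each). Its groups overlapped, as did those of Cox6a1, at 533 to 587 TPM in AML and 477 to 537 TPM in MPN. Cox6b1, at 569.8 to 630.0 TPM in AML and 503.3 to 544.4 TPM in MPN, did not pass either (0.17, adjusted p = 0.24). Cox6a2, a muscle form, reached at most 0.58 TPM in AML and 1.90 TPM in MPN, and Ndufa4l2, a hypoxia-induced relative of Ndufa4, at most 0.66 TPM in AML and 0.12 TPM in MPN. Neither could be tested, and Cox7b2, Cox8b and Cox8c were listed at 0 in every mouse.

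**Figure D3:**
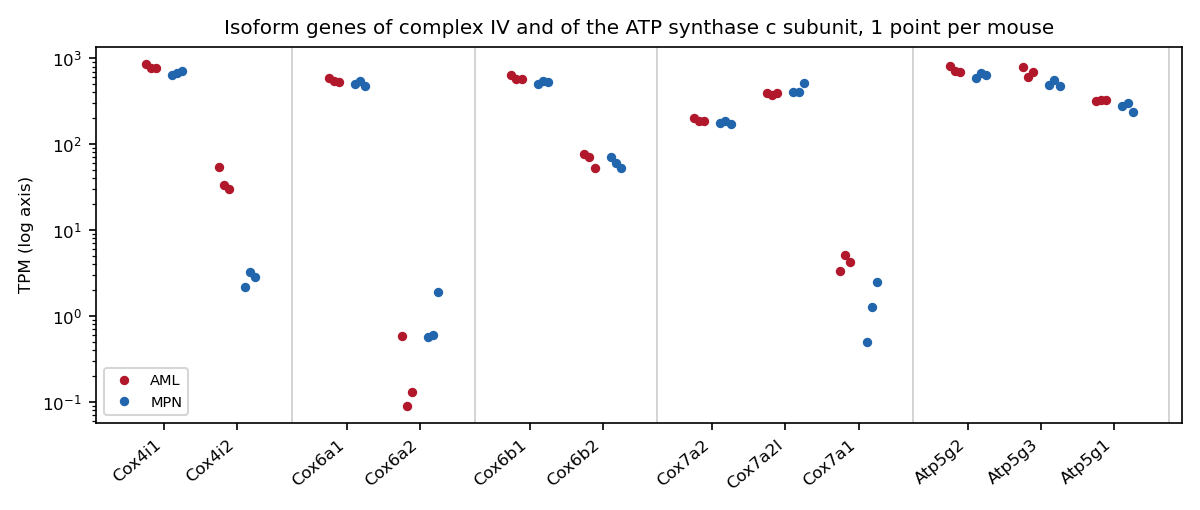
TPM on a log axis for the isoform genes of complex IV and the c subunit genes of ATP synthase, 1 point per mouse, AML left of MPN. Cox4i2 at 29.7 to 53.9 TPM in AML and 2.16 to 3.20 TPM in MPN is the widest separation; genes listed at 0 in all mice are left out.

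In ATP synthase 3 of 17 genes (17.6%) were called, below the background of 20.1% of all tested genes called higher. Of these 3 genes, 2 encode the catalytic core. Atp5b, the catalytic beta subunit, had 1421, 1120 and 1168 TPM in AML and 902, 951 and 809 TPM in MPN, which made it the most abundant of all 94 genes. Atp5a1, the alpha subunit, had 910.0, 672 and 718 TPM in AML and 526, 528 and 485 TPM in MPN. For both, AML replicate 1 was the highest mouse and the groups were apart. The log2 fold changes were 0.47 ± 0.13 for Atp5b (adjusted p = 0.034) and 0.57 ± 0.14 for Atp5a1 (adjusted p = 0.020, limma). Atp5a1 passed in 12 of 16 alternatives and Atp5b in 8. Both calls were lost when any 1 MPN mouse was left out, and that of Atp5b also without AML replicate 1, with adjusted p up to 0.0997. Over the 10 F1 and stalk genes the median was 0.19. Atp5d, the delta subunit, came next by p with 352, 341 and 333 TPM in AML and 275, 289 and 298 TPM in MPN, and did not pass (0.25, adjusted p = 0.078). Atp5e and Atp5h were negative, at -0.06 and -0.15, and did not pass.

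Of the 7 membrane genes of ATP synthase by name, 1 (14.3%) was called. Atp5g3, 1 of 3 genes for the same c ring protein, between which like sequence may make the split of reads uncertain, had 781, 613 and 689 TPM in AML and 488, 561 and 478 TPM in MPN (0.44 ± 0.13, adjusted p = 0.038, limma). Atp5g2 had 822, 711 and 683 TPM in AML and 585, 680.4 and 642 TPM in MPN, and Atp5g1 had 319, 331 and 323 TPM in AML and 277, 298 and 235 TPM in MPN. For all 3 the AML mice were above the MPN mice, but Atp5g2 and Atp5g1 did not pass, at 0.21 and 0.27 (adjusted p of 0.21 and 0.11, limma). Atp5g3 made up 39.4% ± 2.08 of the c subunit transcripts in AML and 36.0% ± 0.60 in MPN, and Atp5g2 42.0% ± 1.48 in AML and 44.98% ± 2.13 in MPN (SD, n = 3 each). Atp5sl had 28.3, 32.7 and 28.1 TPM in AML and 35.3, 35.4 and 34.0 TPM in MPN, with every AML mouse lower. It did not pass at -0.23 (adjusted p = 0.18), and passed at -0.37 under median scaling. The Atp5g3 call remained only without AML replicate 2 among the fits that left out a mouse, with adjusted p up to 0.12.

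Summed over each complex, the groups were apart in every case, by small amounts. The complex IV sum includes Cox7a2l, and the ATP synthase sum includes Atp5s and Atp5sl. ATP synthase genes added up to 8669, 7911 and 7862 TPM in AML and 6674, 7354 and 6873 TPM in MPN. Complex IV genes added up to 6083 ± 253 TPM in AML and 5256 ± 155 TPM in MPN, and complex I subunits to 5866 ± 140 TPM in AML, against 5201 ± 187 TPM in MPN mice (SD, n = 3 each). Complex III averaged 2633 ± 199 TPM in AML and 2236 ± 117 TPM in MPN, and complex II 711 ± 22.3 TPM in AML and 608 ± 36.5 TPM in MPN. The log2 ratios ran from 0.17 for complex I to 0.24 for complex III. All 94 genes took 2.49%, 2.31% and 2.30% of all transcripts in AML and 1.97%, 2.14% and 2.03% in MPN. With libraries scaled to a common median the log2 ratios were 0.03 for complex I, 0.08 for complex II, 0.09 for complex III, 0.06 for complex IV and 0.08 for ATP synthase.

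**Figure D4:**
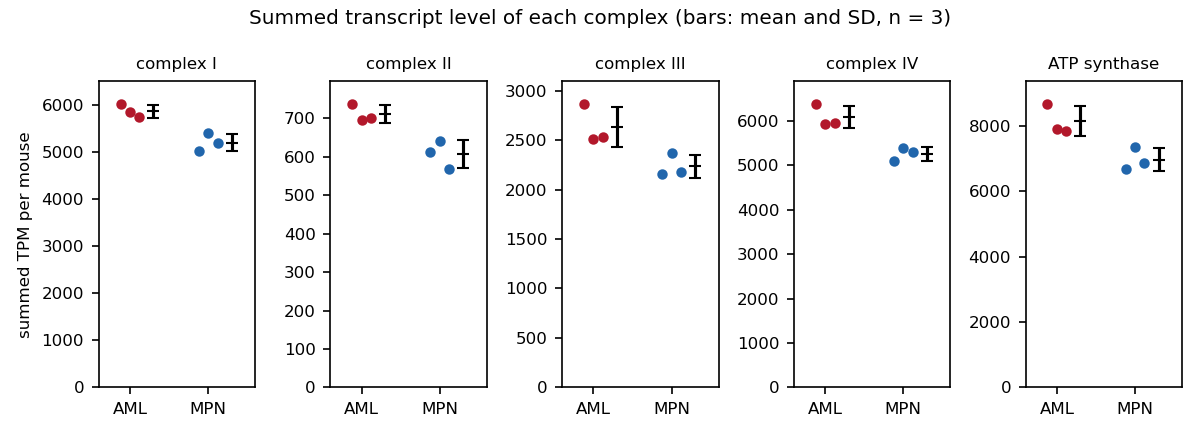
Summed TPM of the genes of each complex in each mouse, with mean and SD beside the points, AML left and MPN right, each axis starting at 0. In all 5 panels the AML points lie above the MPN points, for example at 7862 TPM or more in AML and at most 7354 TPM in MPN for ATP synthase.

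Marker genes of other blood cells moved between the groups as well, beside a background of 20.1% of all tested genes called higher and 10.0% lower. Summed neutrophil markers, 8 of 10 of which were called lower, held 7434 to 21630 TPM in AML and 31747 to 50435 TPM in MPN. Monocyte and macrophage markers (9 of 11 lower) held 736 to 1835 TPM in AML and 2172 to 2440 TPM in MPN. Dendritic cell markers (5 of 10 lower, 1 higher) held 508.2 to 1873 TPM in AML and 1981 to 2516 TPM in MPN. The higher dendritic marker was Flt3, which is counted in the progenitor list as well. B cell markers (6 of 7 tested lower) held 33.5 to 48.0 TPM in AML and 101.2 to 134.9 TPM in MPN, and those of T and NK cells (7 of 9 lower, 1 higher) 18.2 to 27.6 TPM in AML and 77.8 to 103 TPM in MPN. The sums of erythroid markers (1 of 12 lower) overlapped, at 176 to 2431 TPM in AML and 823 to 3654 TPM in MPN. Yet all 12 had a negative log2 fold change, with a median of -1.55. Of these, 6 had an unadjusted limma p under 0.05, beside 5326 of all 12223 tested genes in either direction. The sums of progenitor markers (6 of 11 higher) also overlapped, at 4876 to 11464 TPM in AML and 3946 to 5203 TPM in MPN. No list had a marker listed at 0 in all mice. In bulk samples fewer cells of a type and less RNA per cell cannot be told apart, and the part of these cells in the respiratory results was not tested.

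Genes that supply or build the chain were counted in the same fit, where the background over all tested genes was 20.1% called higher and 10.0% called lower. These lists, here and in the next paragraphs, were chosen with earlier results of these data known. Of 13 citric acid cycle genes, 5 (38.5%) were higher and 0 lower in AML, with a median log2 fold change of 0.25. Suclg2, of succinyl-CoA ligase, averaged 56.2 ± 10.7 TPM in AML, against 29.3 ± 3.46 TPM in MPN mice (0.91, adjusted p = 0.0071, limma). Idh3g, of the NAD-dependent isocitrate dehydrogenase, averaged 224 ± 13.6 TPM in AML, against 145 ± 10.0 TPM in MPN mice (0.63, adjusted p = 0.0049, limma). For pyruvate dehydrogenase, its kinases and phosphatases, 5 of 9 tested genes (55.6%) were higher and 0 lower, with a median of 0.37. They included Pdk1, a kinase that switches the enzyme off, with 45.7 ± 9.33 TPM in AML, against 20.4 ± 3.25 TPM in MPN mice (1.12, adjusted p = 0.0048, limma), and Pdk3, with the same activity, with 71.1 ± 0.52 TPM in AML, against 48.0 ± 2.12 TPM in MPN mice (0.56, adjusted p = 0.0065, limma). Pdk1, Pdk3, Suclg2 and Idh3g each passed in 15 of 16 alternatives. The remaining calls, named after their values were seen, were Idh3a at 0.66, Suclg1 at 0.51 and Sucla2 at 0.43 in the cycle, and Pdp1 at 0.79, Pdha1 at 0.68 and Pdhb at 0.37 in the dehydrogenase list. Of these, Suclg1 and Pdha1 passed in 15 alternatives, Sucla2 in 7 and Pdhb in 6. The cycle had 3 calls without MPN replicate 3, the dehydrogenase list had 3 without MPN replicate 2 or 3, and both had 0 with a term for sex.

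Carriers and porins that exchange ATP, phosphate and metabolites with the cytosol had 5 of 6 tested genes (83.3%) higher and 0 lower, with a median of 0.39. Slc25a5, an ADP/ATP carrier, averaged 1082 ± 189 TPM in AML, against 703 ± 48.1 TPM in MPN mice (0.61, adjusted p = 0.020, limma). Vdac3, a porin of the outer membrane, averaged 177 ± 3.03 TPM in AML, against 137 ± 4.75 TPM in MPN mice (0.37, adjusted p = 0.021, limma). Vdac1 at 0.62, Slc25a3 at 0.42 and Slc25a4 at 0.35 were the other calls. Slc25a5 passed in 12 of 16 alternatives and Vdac3 in 10, and under median scaling the list's median was 0.25, with 2 calls. The list had 0 calls without MPN replicate 1, 2 or 3 or with a term for sex, 2 without AML replicate 2 and 3 without AML replicate 3, while its median stayed between 0.38 and 0.43 in the fits that left out a mouse. Coenzyme Q synthesis had 3 of 12 genes (25%) higher and 1 (8.33%) lower, near the background of 20.1% higher and 10.0% lower. The higher genes were Pdss1, which starts the side chain, with 19.4 ± 2.94 TPM in AML, against 9.43 ± 1.92 TPM in MPN mice (0.98, adjusted p = 0.0098, limma), Coq9 at 0.47 (adjusted p = 0.031) and Coq7 at 0.58 (adjusted p = 0.036). Coq10b was lower, at -0.52 (adjusted p = 0.049). Pdss1 passed in 15 of 16 alternatives, Coq9 and Coq7 in 10 and Coq10b in 8. The higher calls of the list numbered 1 without AML replicate 1 or 2 or MPN replicate 2 or 3, 2 without MPN replicate 1 and 0 with a term for sex.

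Assembly factors outside the Nduf names gave few calls. Complex IV factors had 3 of 22 higher (13.6%, below the background of 20.1%), 0 lower and a median of 0.06, which turned to -0.09 under median scaling. Cox18, an inner membrane insertase, averaged 32.1 ± 4.16 TPM in AML, against 16.2 ± 2.74 TPM in MPN mice (0.95, adjusted p = 0.0069, limma), and Sco2, a copper chaperone, 14.5 ± 2.55 TPM in AML, against 7.04 ± 1.63 TPM in MPN mice (0.95, adjusted p = 0.014, limma). Cmc1 was the other call, at 0.42 (adjusted p = 0.048, limma), and passed in 5 of 16 alternatives, against 15 for Cox18 and Sco2. Complex I factors with other names had 1 of 7 higher, Ecsit, with 33.5 ± 1.28 TPM in AML, against 22.0 ± 0.77 TPM in MPN mice (0.58, adjusted p = 0.0094, limma), and Tmem126b did not pass at -0.52 (adjusted p = 0.053). Factors of complexes II and III had 0 of 7 called by limma. At an unadjusted limma p under 0.05 there were 2, Ttc19 at 0.52 and Uqcc1 at 0.30, beside 5326 of all 12223 tested genes. Among 5 genes of ATP synthase assembly and inhibition, Atpaf1 was higher (0.67, adjusted p = 0.024), a call lost without MPN replicate 1, 2 or 3, and Tmem70 did not pass (0.34, adjusted p = 0.078).

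Of 9 tested regulators of respiratory genes, 2 were higher and 0 lower, with a median of 0.15. That is 22.2%, near the background of 20.1% of all tested genes called higher. Ppargc1b, a coactivator of mitochondrial genes, averaged 5.95 ± 2.06 TPM in AML, against 1.57 ± 0.40 TPM in MPN mice (1.41, adjusted p = 0.0087, limma). Gabpb1, a partner subunit of the ETS factor GABP, averaged 48.2 ± 8.61 TPM in AML, against 28.2 ± 0.98 TPM in MPN mice (0.74, adjusted p = 0.011, limma). Of 14 genes for copying and reading mitochondrial DNA, 3 (21.4%) were higher and 1 (7.14%) lower, near the background of 20.1% higher and 10.0% lower. Peo1, the helicase, was higher (0.58, adjusted p = 0.029), as were Tfb2m and Ssbp1, both at 0.53, and Polg, the catalytic subunit of the polymerase, was lower, with 20.5 ± 2.74 TPM in AML, against 32.2 ± 4.57 TPM in MPN mice (-0.63, adjusted p = 0.026, limma). Polg passed in 13 of 16 alternatives, Tfb2m in 10, Ssbp1 in 9 and Peo1 in 9 of the 15 that tested it. No gene of the list was called higher without AML replicate 2, without MPN replicate 1, 2 or 3 or with a term for sex, and 1 was without AML replicate 1. The lower calls numbered 0 without MPN replicate 1 or 2 and with the term for sex, and 2 without MPN replicate 3.

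**Figure D5:**
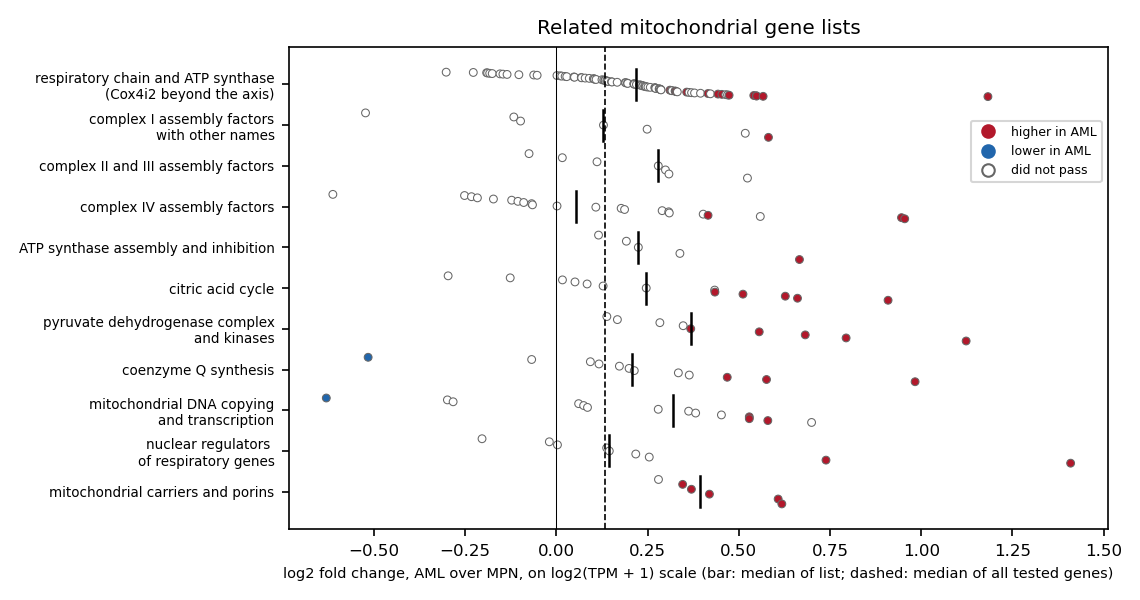
Log2 fold change of AML over MPN for each tested gene of the respiratory chain and of 10 related mitochondrial lists, with the median of each list as a bar and the median of all tested genes as a dashed line. Carriers and porins (median 0.39) and the pyruvate dehydrogenase list (0.37) have the highest medians, complex IV assembly factors (0.06) the lowest.

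Values of other large sets of housekeeping genes are given for comparison. The 77 mitochondrial ribosomal protein genes had 15 higher, 1 lower and a median of 0.27, and 39 tested proteasome subunit genes had 6 higher, 0 lower and a median of 0.23, beside the background of 20.1% of all tested genes called higher. Without MPN replicate 1, 2 or 3 the ribosomal genes had 2, 3 and 5 higher and the proteasome genes 0, 3 and 0. Without AML replicate 1, 2 or 3 the ribosomal genes had 10, 8 and 13 higher and the proteasome genes 2, 2 and 5. With a term for sex each set had 1. These stand beside the 15 of 89 and the median of 0.22 of the respiratory chain and ATP synthase, and no test of a difference between the sets was made. Between the deposited tables, the 88 respiratory genes measured in both had the same sign for 86. The median absolute difference of their log2 fold changes was 0.03, and differences over 0.2 occurred for 2 genes, Cox4i2 and Cox7a1. The RPKM table called 19 of the 88 higher, beside 20.5% of all genes tested there, and 14 of the 19 were among the 15 called in TPM.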

How the data were processed

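RNA was measured in c-Kit+ splenocytes of 3 AML and 3 MPN mice, as poly-A selected, strand-specific libraries with paired-end reads, per the labels' protocols. The deposited TPM table, by gene symbol, is gene-level RSEM output per the file headers. The deposited RPKM table of the authors is keyed by Ensembl gene, and its low values show 1 read added per gene. The submitters' processing notes name Bowtie2, RSEM, TopHat2 and the builds mm9 and mm10, without roles or versions, and the build behind each table is therefore unknown here. All value columns were mapped to mice. Replicate numbers follow accession order and pair no mice. Labels do not say how the animals were related, and p-values set the difference between the groups against the spread between these samples.

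The filter kept 12223 genes, those reaching 1 TPM in 3 or more of the 6 mice. limma 3.58.1 (R 4.3.3) compared AML with MPN on log2(TPM + 1), two-sided, without covariates and with the prior variance following the mean level. Adjustment was by Benjamini-Hochberg over all tested genes, with a threshold of 0.05. Fold changes on this scale understate those of low genes. TPM keeps no depth. The fit was tested on simulated data. Genes and lists were chosen with earlier results of these data known. Named genes were the 3 with the smallest p and the most abundant gene of each role, isoform families, genes called at least 2-fold, and 2 genes of each related list. A gene that this rule names is not reported here. Other genes, among them Ndufaf3, Ndufaf5, Ndufs5, Cox7c, the X-linked genes, further calls in related lists and the neighbours of Cox4i2, were named after their values were seen. Promoters and names came from RefSeq GRCm38.p6 and locations from GENCODE M21, which serve for location only. Near-identical copies were not separated: the Atp5g genes encode the same mature protein.

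Alternatives were pseudocounts of 0.1 and 5, filters at 5 TPM and none, scaling to the median or by quantiles, the RPKM table, no trend, array weights, a term for sex and leaving out each mouse.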

Additional observations from a re-analysis of the deposited data

How the results depend on the processing

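The count of respiratory genes called higher in AML, 15 with limma on TPM, was 15 at pseudocounts of 0.1 and 5, 11 without a filter, 14 with a filter at 5 TPM, 19 in the RPKM table and 18 with array weights. It was 3 under median scaling, where 1 was called lower, 4 under quantile normalization, 7 without the trend and 1 with a term for sex. With that term the contrast is between the male AML mouse, replicate 3, and the MPN group, and the lone mouse is taken to vary as the other mice do. Leaving out 1 mouse gave 1 to 10 genes. The median log2 fold change, 0.22, was 0.077 under median scaling, 0.11 under quantile normalization and 0.13 with array weights, and 0.18 to 0.26 when 1 mouse was left out. Median scaling also moved the share of higher among all called genes to 52.3%, against 66.7% without it. Over all tested genes, 2454 were higher and 1224 lower. The term for sex gave 673 higher and 535 lower, array weights gave 2131 lower, and leaving out 1 mouse gave 1291 to 2303 higher and 718 to 1402 lower. The cause of these shifts was not tested.

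Reversed signs among the genes named by rule were these. Under median scaling Sdhb was at -0.0087, Cox6a1 at -0.0024, Cox6b2 at -0.034, Cox7a2 at -0.041 and Elane at -0.011, and under quantile normalization Cox7a2 was at -0.021. Array weights put Ly6c2 at 0.25 and Cd79b at 0.12, and the term for sex put Cox6b2 at -0.21, Elane at -0.30 and Irf8 at 0.39. When 1 mouse was left out, log2 fold changes ranged from -0.57 to 0.22 for Ly6c2, from -1.21 to 0.010 for Irf8, from -0.36 to 0.41 for Elane and from -3.05 to 0.12 for Hbb-b1, and for the respiratory genes from -0.18 to 0.0052 for Cycs and from -0.11 to 0.0071 for Uqcrh. No paired analysis was possible because the replicate numbers follow accession order only. With 3 mice a group, small changes of single genes are at the limit of what can be resolved.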
